A study of Danio rerio with 8 samples.

Results

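The SoxB1 genes sox19b, sox19a, sox3 and sox2 of the zebrafish (Danio rerio) were followed across the maternal-to-zygotic transition in embryos with and without knockdown of ddx3xb, a gene for a DEAD-box RNA helicase. The 4 genes were found by symbol, ignoring case, among the 33737 Ensembl gene identifiers of the deposited tables. Each matched 1 identifier: ENSDARG00000040266 (sox19b), ENSDARG00000010770 (sox19a), ENSDARG00000053569 (sox3) and ENSDARG00000070913 (sox2). RNA with poly(A) tails was sequenced from whole embryos collected 2 and 6 hours after fertilization (hpf). The controls had received a control morpholino according to the titles and are labelled wild type, and the knockdown embryos had received a morpholino against ddx3xb. A morpholino is an antisense oligomer that blocks translation or splicing of its target RNA, so that the genome of the embryo is left as it was. The sources used here do not give the strain, the dose or the number of embryos per library. The 8 libraries formed 4 groups of 2, 1 for each arm and age.

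SoxB1 proteins are transcription factors that bind DNA through an HMG box, often side by side with a POU-domain partner. In zebrafish, sox19b RNA is laid down in the egg, and its protein acts with Pou5f3 and Nanog to open chromatin and start transcription from the embryo's own genome. The other members are transcribed by the embryo, act redundantly with each other in the blastula, and later mark the neural plate and neural progenitors, where sox2 is a textbook progenitor gene.

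The authors deposited 1 RPKM value (read count divided by gene length and by library depth) per gene and group. No spread between the 2 libraries of a group was therefore available, and no difference below has an error, a p-value or a replicate check. RPKM is per length, so levels can be set side by side between genes. Ratios between groups were taken as log2 of (RPKM + 1), which understates the change of genes with low values, and a gene is said to have risen or fallen where that ratio reached 2-fold. The 16217 genes with at least 1 RPKM in any group were compared, and all 4 SoxB1 genes were among them. RPKM sums lay between 431798 and 473849 in 3 of the groups and at 731302 for knockdown at 2 hpf, and between 12104 and 14237 genes reached 1 RPKM. Steps in the low values put the libraries between 1 and 0.490 of the depth of the deepest. The labelled ages were read against known markers. Transcripts known as maternal (9 measured) summed to 2058 and 2222 RPKM at 2 hpf in control and knockdown and to 486.0 and 730.7 RPKM at 6 hpf, and 6 genes known to be on at gastrulation summed to 0.869 and 0.776 RPKM at 2 hpf and to 424.1 and 226.8 RPKM at 6 hpf.

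The maternal member stood apart from the zygotic ones at 2 hpf. Control embryos had 406.4 RPKM of sox19b and knockdown embryos 273.2 RPKM, and it ranked 94th and 164th from the highest of the 16217 genes. sox3 was at 0.682 and 1.75 RPKM, sox19a at 0.0640 and 0.571 RPKM, and sox2 at 0.105 and 0.0247 RPKM. In control embryos the order was sox19b, sox3, sox2, sox19a, and in knockdown embryos sox19b, sox3, sox19a, sox2. The level of sox19b was 596.1-fold that of the next gene in control and 155.9-fold in knockdown embryos. The lower places in this order may rest on few reads, but the reads are known only as lower bounds. A low bound does not show few reads, since that of sox19b in control embryos was 20 at 406.4 RPKM. The lowest value of a gene stands for at least 1 read. By this bound the sox2 values at 2 hpf stood for at least 5 reads in control and 1 in knockdown. Those of sox19a stood for at least 1 and 7, and those of sox3 for at least 1 and 2.

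**Figure D1:**
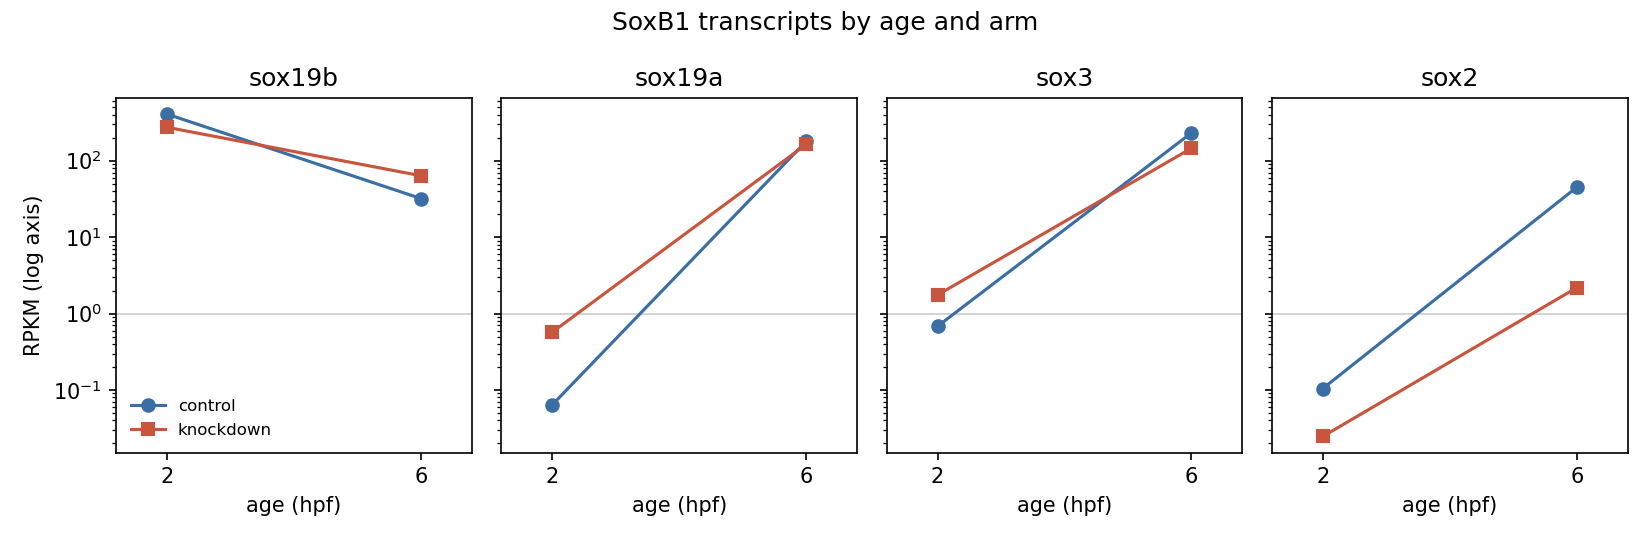
Levels of the 4 SoxB1 transcripts, 1 panel per gene, with age in hours post fertilization on the x axis and RPKM on a log y axis. Each point is the single deposited value of a group of 2 libraries, circles for control and squares for knockdown embryos, and the grey line marks 1 RPKM. The knockdown point lies below control at 2 hpf and above it at 6 hpf for sox19b, the other way round for sox3 and sox19a, and below at both ages for sox2, which ended at 44.8 RPKM in controls and at 2.18 RPKM in the knockdown.

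The question of the comparison over time was how the SoxB1 genes pass from the maternal to the zygotic supply in each arm. All 4 genes passed 2-fold in both arms, where 55.5% of all compared genes did so in control and 38.5% in knockdown embryos, with sox19b fallen and the other 3 risen. Rises made up 27.5% and falls 28.0% of all compared genes in control embryos, against 25.5% and 13.0% in knockdown embryos. In control embryos sox19b fell by 3.63 on the log2 scale of (RPKM + 1), to 32.0 RPKM. On this scale, which understates the falls of genes with low values, only 34 of the 16217 genes fell further. In knockdown embryos sox19b fell by 2.09, to 63.5 RPKM, and 357 genes fell further. The RPKM of sox19b at 6 hpf was 7.87% of that at 2 hpf in control and 23.3% in knockdown embryos. This share left is a ratio of RPKM values, in which RNA made after 2 hpf is not told apart. Among the 9 maternal markers the share left was higher in the knockdown for 8, with medians of 17.3% and 35.7% and ranges of 7.30% to 59.1% and 10.2% to 120.5%. The share left was not counted over all genes. Falls past 2-fold were fewer in the knockdown over all genes too (13.0% against 28.0%), so this number is not read as particular to the maternal markers. These markers include the germ plasm organizer buc (8.78% and 41.0%) and the germ cell gene DAZL (7.30% and 10.2%). The exception was org, an oogenesis-related gene, with 17.3% in control and 11.5% in knockdown embryos. For this maternal member the change over time differed by 1.54 between the arms on the log2 scale. The median change over all compared genes was -0.17 in control and 0.19 in knockdown embryos, and rescaling the groups by their median ratio brought the sox19b difference to 0.99.

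Of the zygotic members, sox19a had the largest log2 change of (RPKM + 1) in both arms, although with a pseudocount of 5 RPKM sox3 was ahead in control embryos (5.37 against 5.18). The change of sox19a from 2 to 6 hpf was 7.40 in control, where 32 genes rose further, and 6.71 in knockdown embryos, where 36 did, and it reached 179.0 and 163.3 RPKM. sox3 changed by 7.11 in control and 5.73 in knockdown embryos and reached 230.7 and 145.5 RPKM. Both genes were thus among the strongest rises of either arm, with no more than 74 genes above them. sox2 took another course. Its log2 change was 5.38 in control embryos, with 173 genes above it, and 1.63 in knockdown embryos, with 2320 genes above it. The knockdown change minus the control change was -3.74 for sox2, -1.37 for sox3 and -0.69 for sox19a. The low values at 2 hpf weigh on these differences, since a pseudocount of 0.1 RPKM took that of sox19a to -2.16 and one of 5 RPKM took that of sox3 to -0.90.

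Taken by level at 6 hpf, the order was sox3, sox19a, sox2, sox19b in control embryos and sox19a, sox3, sox19b, sox2 in knockdown embryos. The first places were close, with sox3 1.29-fold over sox19a in control and 0.891-fold in knockdown embryos, and without replicate values this exchange cannot be set against an error. The last places were far apart in the knockdown, where sox19b stood at 63.5 RPKM and sox2 at 2.18 RPKM.

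Added over the 4 genes, SoxB1 RNA amounted to 407.3 RPKM at 2 hpf and 486.5 RPKM at 6 hpf in control embryos, and to 275.5 and 374.5 RPKM in knockdown embryos. The summed level was thus higher at 6 than at 2 hpf in both arms, by 0.26 and 0.44 on the log2 scale, short of 2-fold, although quantile normalization turned the control value to -0.01 and equal RPKM sums took the knockdown value to 1.07, past 2-fold. Its make-up changed almost completely. sox19b held 99.8% of the sum at 2 hpf in control and 99.1% in knockdown embryos. At 6 hpf the shares in control embryos were 47.4% for sox3, 36.8% for sox19a, 9.22% for sox2 and 6.57% for sox19b. In knockdown embryos they were 38.8% for sox3, 43.6% for sox19a, 0.582% for sox2 and 17.0% for sox19b. These shares do not depend on the scaling by a common factor. The maternal gene held a larger and sox2 a smaller share of the knockdown sum.

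**Figure D2:**
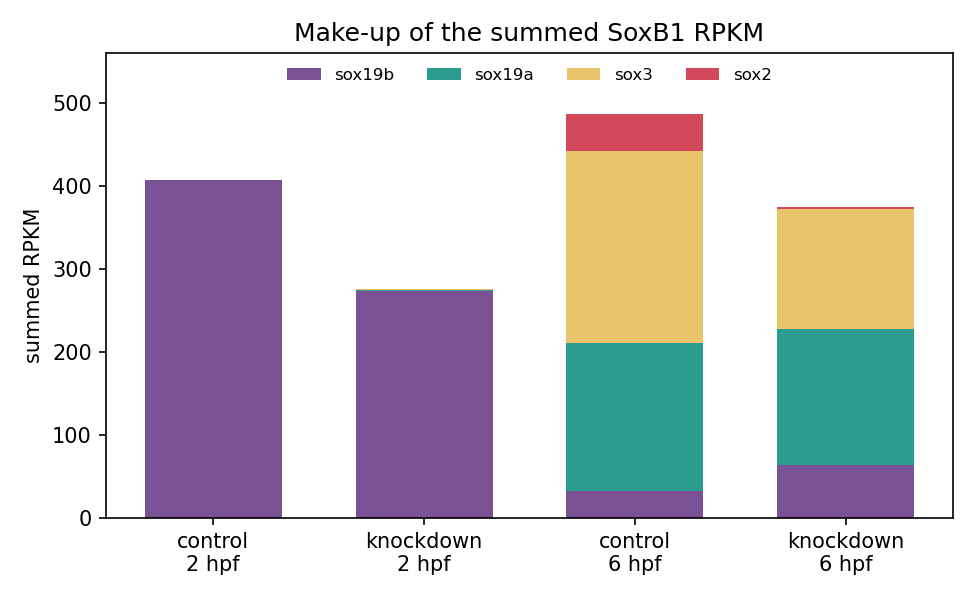
Summed RPKM of the 4 SoxB1 genes in each group (y axis, linear from 0), stacked by gene, with 1 deposited value per gene and group. The bars at 2 hpf are almost entirely sox19b (99.8% and 99.1%), while at 6 hpf sox3 and sox19a make up most of both bars, sox19b is the thicker segment in knockdown embryos (17.0% against 6.57%), and sox2 is a visible segment in control (9.22%) but not in knockdown embryos (0.582%).

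At 2 hpf the comparison of knockdown with control embryos asked whether the SoxB1 supply differed before most zygotic transcription. None of the 4 genes passed 2-fold, where 1.45% of all compared genes did (0.506% higher and 0.943% lower). sox19b, at 406.4 RPKM in the control and 273.2 RPKM in the knockdown table, had a log2 ratio of -0.57, and 1114 of the 16217 genes (6.87%) had a lower one. The median over all compared genes was -0.12. A rescaling to equal RPKM sums, which the high sum of the knockdown table at 2 hpf dominates, took sox19b to -1.33, past 2-fold. sox3 had a log2 ratio of 0.71, with 178 genes above it, and sox19a one of 0.56, with 304 genes above it. Both were higher in the knockdown under the 5 alternatives tried, and both passed 2-fold with a pseudocount of 0.1 RPKM (1.24 and 2.03), the setting that gives most weight to low values. The ratio of sox2 was -0.11, from values under 1 RPKM in both arms. In poly(A) RNA of whole embryos, fewer molecules, fewer cells holding them and poorer capture of short poly(A) tails cannot be told apart.

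At 6 hpf sox2 fell, and the other 3 members stayed within 2-fold. From 44.8 RPKM in control embryos it was down to 2.18 RPKM in the knockdown, 20.6-fold lower by RPKM, with a log2 ratio of -3.85. Of the 16217 genes, 8 had a lower log2 ratio of (RPKM + 1), a scale that understates the change of genes with low values. By RPKM alone OTX2 (control 3.79 RPKM, knockdown 0.118 RPKM) and mespaa (control 18.1 RPKM, knockdown 0.626 RPKM) fell further than sox2. Neither is among the 8, and a rank by RPKM alone was not taken. Of all compared genes 16.6% passed 2-fold in either direction (8.72% higher and 7.87%, the direction of sox2, lower). By the bound given above the 2 sox2 values stood for at least 1139 and 52 reads. Counting error is thus small beside the difference, but replicate error is unknown. The ratio of sox2 lay between -4.30 and -2.80 under the alternatives tried.

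Control embryos had 230.7 RPKM of sox3 and knockdown embryos 145.5 RPKM, for a log2 ratio of -0.66 that reached -1.02 after rescaling by the median ratio. sox19a stood at 179.0 and 163.3 RPKM, a log2 ratio of -0.13, and remained between -0.49 and -0.12 under the alternatives. sox19b went the other way, with 32.0 RPKM in the control and 63.5 RPKM in the knockdown table. Its log2 ratio of 0.97 lay just short of 2-fold, and was between 0.62 and 0.99 under the alternatives. The median over all compared genes was 0.20 at this age.

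Genes of the same course give a scale for these ratios. A set of 383 genes stood under 2 RPKM at 2 hpf and reached at least 20 RPKM at 6 hpf, as means of both arms. A mean log2 change over both arms of 2 or more was also required. At 6 hpf 164 of them were at least 2-fold lower and 28 at least 2-fold higher in knockdown than in control embryos. The median log2 ratio was -0.77, with quartiles of -1.59 and -0.07. The bounds of this set were chosen with the values known so that it holds the 3 zygotic SoxB1 genes. sox19a lay above its median, with 72.1% of the set below it, sox3 near the median, with 53.0% below it, and sox2 near the lower end, with 2.09% below it. sox2 met the bound of 20 RPKM (mean 23.5 RPKM) only through its control value of 44.8 RPKM, with 2.18 RPKM in the knockdown. Its place in the set is therefore not independent of the bounds and only describes it. Of 699 genes cleared at least 4-fold from 5 RPKM or more, as means of both arms, the median ratio was 0.65 with quartiles of 0.29 and 0.96. sox19b lay just past the upper quartile, with 24.5% of the set above it. The 6 hpf values of both arms also decided which genes entered this set, and genes kept high in the knockdown could drop out. The place of sox19b is therefore not independent of the bounds either and only describes it.

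**Figure D3:**
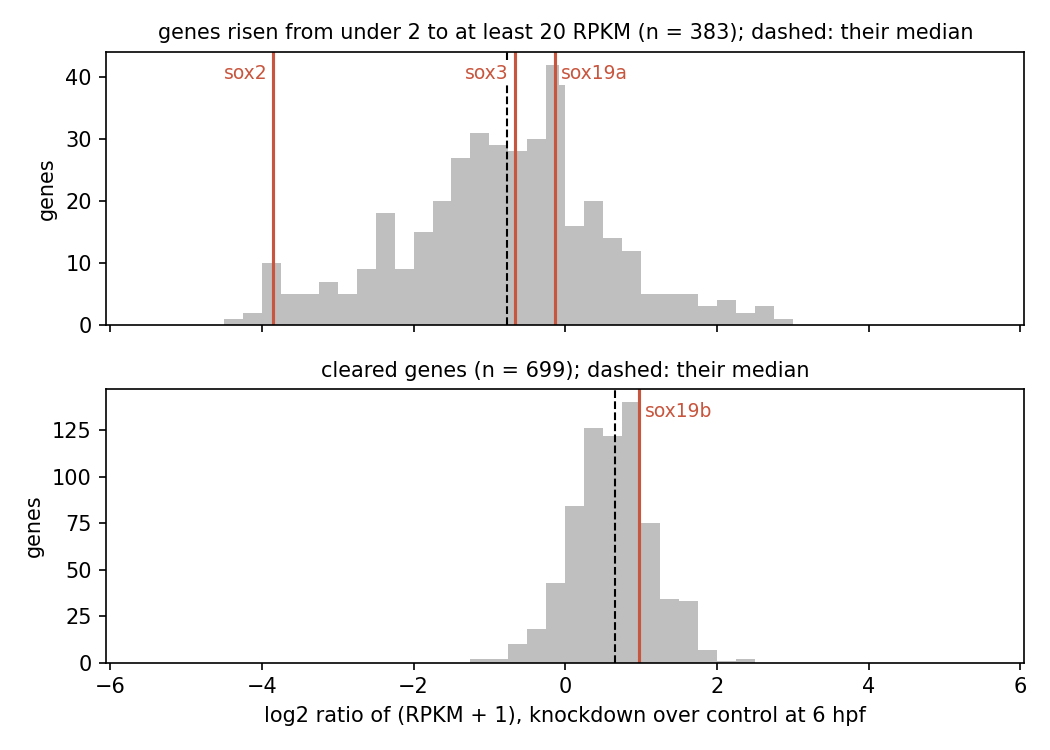
Distribution of the log2 ratio of (RPKM + 1), knockdown over control at 6 hpf (x axis), with the number of genes on the y axis, for 383 genes risen from under 2 to at least 20 RPKM (top) and 699 cleared genes (bottom). Red lines mark the SoxB1 genes and the dashed line the median of each set. The 6 hpf values of both arms also decided which genes entered the sets. sox3 (-0.66) lies near the median of -0.77, sox19a (-0.13) above it and sox2 (-3.85) near the lower end, and sox19b (0.97) lies above the median of the cleared genes (0.65).

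The partners of Sox19b in genome activation did not share 1 course. pou5f3, which codes for the POU factor, had 566.4 and 496.0 RPKM in control and knockdown embryos at 2 hpf, then 706.7 and 674.6 RPKM at 6 hpf. nanog, a homeobox factor gene, had 1178 and 1187 RPKM at first and 207.5 and 728.0 RPKM at 6 hpf. Its log2 change over time was -2.50 in control and -0.70 in knockdown embryos, and at 6 hpf its log2 ratio of knockdown over control was 1.81, where sox19b had 0.97.

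Other Sox genes were mostly low among those with a deposited value, and 5 further identifiers with a Sox symbol, sox17 and sox32 among them, had none. Besides the 4 members and sox2ot, 19 measured identifiers carried a Sox symbol, and 13 of them stayed under 1 RPKM in every group, with a highest value of 0.820 RPKM. That value belongs to ENSDARG00000069866, 1 of 2 identifiers with the symbol SOX1, which names the remaining SoxB1 genes. It stood at 0.247 and 0.203 RPKM at 2 hpf, then at 0.820 and 0.204 RPKM at 6 hpf, and the second SOX1 identifier did not exceed 0.0294 RPKM. The 6 that reached 1 RPKM stayed within 2-fold between the arms at both ages on the (RPKM + 1) scale. Over all compared genes 1.45% passed 2-fold at 2 hpf and 16.6% at 6 hpf, so with only 6 genes this does not set them apart. With a pseudocount of 0.1 RPKM 1 SoxB2 gene passed it at 2 hpf and 2 genes of the other groups at 6 hpf. At that setting 869 and 4800 of the 16217 compared genes did so at the 2 ages. SOX11 (ENSDARG00000077811), a SoxC gene of neural progenitors and neurons, rose over time like the zygotic SoxB1 genes, from 0.761 and 0.769 RPKM at 2 hpf to 47.8 and 58.6 RPKM at 6 hpf in control and knockdown embryos. Its log2 ratio between the arms at 6 hpf was 0.29, where sox2, at 44.8 RPKM in control, had -3.85. sox13, a SoxD gene, followed the course of sox19b at a lower level, from 26.7 and 22.4 RPKM at 2 hpf to 5.66 and 8.90 RPKM at 6 hpf. SOX8 (3.57 and 3.34 RPKM at 2 hpf, 0.441 and 0.597 RPKM at 6 hpf) and SOX9 (ENSDARG00000043923, 4.97 and 4.48 RPKM at 2 hpf, 0.583 and 1.29 RPKM at 6 hpf) were SoxE genes of the same shape. The second SOX9 identifier, ENSDARG00000003293, was at 0.0791 and 0.133 RPKM at 2 hpf, then at 1.24 and 0.507 RPKM at 6 hpf. sox21a, a gene of the SoxB2 group, which counteracts SoxB1 activity in chick, was at 1.14 and 0.363 RPKM at 2 hpf, then at 0.110 and 0.202 RPKM at 6 hpf.

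The long noncoding RNA sox2ot, whose gene spans sox2 in the RefSeq annotation (assembly GRCz12tu), stood at 0.108 and 0.296 RPKM at 2 hpf, then at 1.40 and 0.147 RPKM at 6 hpf. It was lower in the knockdown at 6 hpf, by a log2 ratio of -1.06, as sox2 was. It reached 1 RPKM only in control embryos at 6 hpf, so the ratio rests on 1 low value and could not have been called higher. The sources used here give neither the annotation behind the counts nor the counting rule. If the counted features overlap as well, reads of one may have been counted for the other.

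Genes of the early neural plate and anterior ectoderm, the tissue in which zygotic SoxB1 genes are active, were mostly lower in the knockdown at 6 hpf. Of 37 listed symbols 34 identifiers were measured and 22 reached 1 RPKM, of which 9 were at least 2-fold lower and 2 at least 2-fold higher in the knockdown, with a median log2 ratio of -0.62. The number past 2-fold in either direction went from 11 to 9 with a filter of 5 RPKM. Over all compared genes 7.87% were lower and 8.72% higher, with a median of 0.20. Of the 383 risen genes described above, 164 were lower and 28 higher, with a median of -0.77, so a lower level was not particular to this list. The lowest log2 ratios of (RPKM + 1) were those of lhx5, a forebrain LIM-homeobox gene (26.6 RPKM in control, 2.87 RPKM in knockdown), otx2a, an anterior homeobox gene (27.9 and 3.72 RPKM), and IRX1, an Iroquois homeobox gene (15.6 and 2.19 RPKM). By RPKM alone the fold was larger for 2 genes at lower levels. These were OTX2 (3.79 and 0.118 RPKM) and SIX3 (ENSDARG00000054879, 1.81 and 0.0940 RPKM). Both reached 1 RPKM only in control embryos at 6 hpf, so neither could have been counted as higher in the knockdown. The 2 higher ones were her5 (7.41 and 39.4 RPKM) and GMNN, which codes for geminin (91.4 and 298.2 RPKM). GMNN was already at 374.1 and 305.8 RPKM at 2 hpf in control and knockdown embryos. Its log2 change from 2 to 6 hpf was -2.02 in control and -0.04 in knockdown embryos. The ZIC2 identifiers, zinc finger genes of the neural plate, differed from each other, with ENSDARG00000015554 fallen from 24.9 to 5.72 RPKM and ENSDARG00000037178 at 318.5 and 246.8 RPKM. At 2 hpf 1 of the 22 was 2-fold higher in the knockdown and none lower, against 0.506% and 0.943% of all genes, namely irx7 (0.207 and 1.70 RPKM), with her5 at 0.448 and 1.78 RPKM, SALL1 (ENSDARG00000074319) at 1.54 and 0.791 RPKM and zeb2a at 1.18 and 0.538 RPKM. From these low values the number past 2-fold in either direction went to 0 with a pseudocount of 5 RPKM, to 3 with 0.1 RPKM, and to 2 with quantile normalization or equal RPKM sums.

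Genes outside the neural plate moved as well at 6 hpf, where the shares over all compared genes were 7.87% lower and 8.72% higher and the median 0.20. Of 12 compared genes of the non-neural ectoderm 5 were 2-fold lower and 1 higher in the knockdown (median -0.45), with krt4 at 1065 and 351.8 RPKM, krt5 at 701.4 and 127.3 RPKM, DLX3 at 3.27 and 0.207 RPKM, and klf2a, the higher one, at 7.27 and 29.1 RPKM. Of 14 compared genes of mesoderm and endoderm 8 were 2-fold lower and none higher (median -1.33), with the largest differences in cdx4, mespaa, msgn1 and eve1, at log2 ratios between -4.22 and -3.12. DLX3 and mespaa reached 1 RPKM only in control embryos at 6 hpf, so neither could have been counted as higher in the knockdown. Of the 9 maternal markers 4 were 2-fold higher in the knockdown and none lower (median 0.97), namely buc (1.62), gdf3 (1.43), MOS (1.31) and ZAR1 (1.16), and this number went to 2 with a pseudocount of 5 RPKM and to 6 with 0.1 RPKM. At 2 hpf 1 of the 12 genes of the non-neural ectoderm was 2-fold higher in the knockdown and none lower, namely klf17 (0.739 and 3.12 RPKM). Of the 9 maternal markers 1 was higher, org (log2 ratio 1.03), and none lower. None of the 14 genes of mesoderm and endoderm passed 2-fold. Over all compared genes 0.506% were higher and 0.943% lower at that age. The non-neural number past 2-fold went to 0 with a pseudocount of 5 RPKM and to 3 with 0.1 RPKM. The part of these differences between the arms in the SoxB1 values was not tested.

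**Figure D4:**
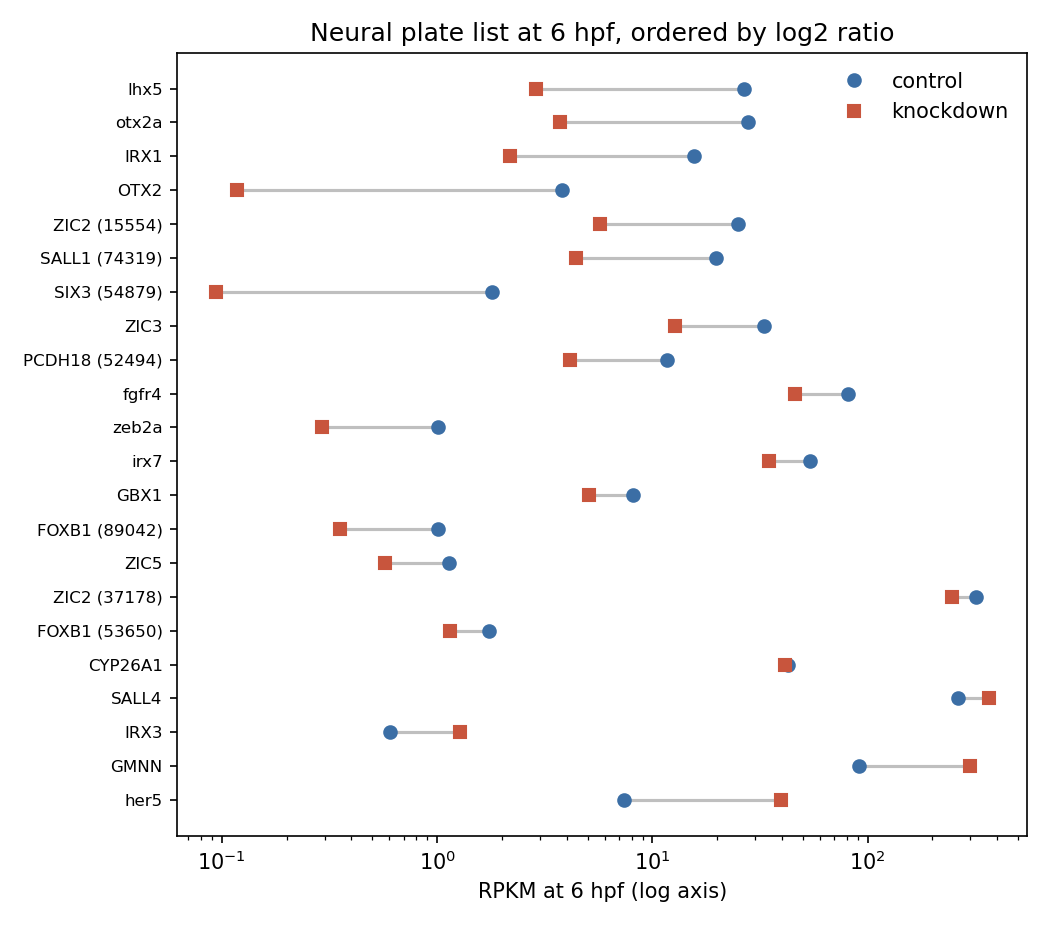
RPKM at 6 hpf (x axis, log scale) of the 22 genes of the neural plate list that reached 1 RPKM in any group, 1 row per identifier, ordered by the log2 ratio of (RPKM + 1). Circles are control and squares knockdown embryos, each the single value of a group of 2 libraries, and the digits after a symbol are the end of the identifier where several carry it. The 9 genes at the top were at least 2-fold lower in knockdown than in control embryos, and the 2 at the bottom, GMNN and her5, at least 2-fold higher. OTX2 and SIX3, among the 9, reached 1 RPKM only in control embryos at 6 hpf.

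The genes whose 4 values ran most like those of a member were drawn from 8770 genes with a symbol and at least 5 RPKM in some group, by the root mean square difference of the centred log2 (RPKM + 1) values. With 4 values per gene a close match is a weak description. For sox19b the nearest were ildr1b (0.07), asap3 (0.10), rbm33b (0.11) and castor1 (0.12), and 72 genes lay within 0.25. ildr1b stood at 53.3 and 39.2 RPKM at 2 hpf, then at 3.67 and 7.40 RPKM at 6 hpf, the sox19b course at a lower level. For sox19a the nearest were isg15 (0.12), sb:cb81 (0.12), IER5 (0.17) and marcksl1a (0.18), with 11 genes within 0.25. isg15, a ubiquitin-like gene, was at 0.115 and 0.621 RPKM at 2 hpf, then at 161.8 and 186.8 RPKM at 6 hpf. For sox3 only 3 genes lay within 0.25, and the nearest were wnt11f2 (0.09), plekhn1 (0.20), slc25a55a (0.21) and, beyond that limit, IER5 (0.26). wnt11f2, the Wnt ligand gene of zebrafish convergence and extension, was at 0.183 and 0.717 RPKM at 2 hpf, then at 145.7 and 105.2 RPKM at 6 hpf. For sox2 there were 12 within 0.25, led by si:ch211-217k17.8 (0.06), HKDC1 (0.08), PLA2G12B (0.09) and cdh6 (0.13). HKDC1, a hexokinase family gene, stood at 0.0914 and 0.0588 RPKM at 2 hpf, then at 42.2 and 2.48 RPKM at 6 hpf, and cdh6, a cadherin gene, at 0.0646 and 0.0392 RPKM and then 41.2 and 2.74 RPKM.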

How the data were processed

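Stranded poly(A) RNA libraries were made from whole embryos, per the labels' protocols. HISAT2 2.0.5, SAMtools 1.9, cutadapt 1.13, Trimmomatic 0.36 and the build Zv9 are listed in the submitters' processing notes. The sources used here do not give the counter, its strand setting, the annotation or the gene lengths. The authors deposited RPKM in 4 tables without header, 1 per group of 2 libraries; the arm and age in a table's name gave its group. One knockdown library at 6 hpf has ddx4xb as its genotype and ddx3xb in its title, which was followed. Coordinates are not part of the tables.

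Ratios were log2 of (RPKM + 1) over the 16217 genes with at least 1 RPKM in any group, called at 2-fold, computed with Python 3.11.15, pandas 2.3.3 and numpy 2.4.6 after tests on simulated data. Depth is known only as ratios between libraries, from steps in values under 0.3 RPKM (tolerance 0.0005 on the log2 scale). The least number of reads behind a value follows from these ratios and the lowest value of the gene, taken as at least 1 read, and covers counting error only. A replicate fit could be planned but not run, since each group has 1 value. Cleared genes had at least 5 RPKM at 2 hpf and a mean log2 change over both arms of -2 or below. Symbols matched 21939 of the 33737 identifiers; where a listed paralog letter had no match, all identifiers with the symbol without the letter were taken, so SOX, ZIC2 and similar paralogs are not told apart by name. Reads shared between paralogs or overlapping genes leave single values uncertain.

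The genes named were the SoxB1 members, other Sox genes at 1 RPKM or more, pou5f3 and nanog, up to 4 genes per list with the largest ratio between the arms, and the 4 nearest profiles per member. SOX1, sox2ot, ZIC2, GMNN, OTX2 and SIX3 were added after their values were seen, and a gene named among the 9 maternal markers for the share left was too. The members and lists were chosen with earlier results of these data known. Alternatives were pseudocounts of 0.1 and 5 RPKM, rescaling all groups by the median ratio, quantile normalization, equal RPKM sums, no filter and a filter of 5 RPKM.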

Additional observations from a re-analysis of the deposited data

Results flagged for a closer look

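For sox19b and sox3 the difference between knockdown and control embryos pointed in opposite directions at the 2 ages. The log2 ratio of sox19b was -0.57 at 2 hpf and 0.97 at 6 hpf, and that of sox3 was 0.71 at 2 hpf and -0.66 at 6 hpf. The ratios of sox19a, 0.56 at 2 hpf and -0.13 at 6 hpf, also had opposite signs, the second close to 0. Each rests on 1 value per group, and the difference between the ages was not tested. The signs were the same under the 5 alternatives tried. The lower bounds on the reads of sox3 and sox19a at 2 hpf were 1 in control and 2 and 7 in knockdown embryos.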

How the results depend on the processing

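Of 100 values of the 4 genes and their sum under pseudocounts of 0.1 and 5 RPKM and 3 other scalings, 93 kept their side of 2-fold, 6 passed it and 1 dropped below it, and no called value changed sign. At 2 hpf the number of SoxB1 genes past 2-fold between the arms went from 0 to 2 with a pseudocount of 0.1 RPKM and to 1 with equal RPKM sums. At 6 hpf it went from 1 to 2, with sox3, after rescaling by the median ratio. The change over time of sox2 in the knockdown dropped to 0.51 with a pseudocount of 5 RPKM. The difference between the arms in the change over time reached -2.16 (pseudocount of 0.1 RPKM) and -1.05 (median ratio) for sox19a, and dropped to 0.99 (median ratio) for sox19b and -0.90 (pseudocount of 5 RPKM) for sox3. Over all genes, 82 were higher and 153 lower at 2 hpf, against 111 and 89 (median ratio), 120 and 89 (quantile), 36 and 3438 (equal sums), 287 and 582 (pseudocount of 0.1 RPKM) and 33 and 19 (pseudocount of 5 RPKM). At 6 hpf 1414 were higher and 1277 lower, against 598 and 2176 (median ratio), 2875 and 1925 (pseudocount of 0.1 RPKM) and 459 and 539 (pseudocount of 5 RPKM). Over time, 4453 rose and 4547 fell in control, against 5608 and 2928 (median ratio), and 4132 and 2107 in knockdown embryos, against 3218 and 3220 (quantile) and 5956 and 902 (equal sums). The cause was not tested. No paired analysis was possible because each group has 1 value per gene, and for the same reason no replicate could be left out.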
